A study of Rattus norvegicus with 10 samples.

Results

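Transcripts of Creb3l1 and 8 other genes of the CREB factor family were followed in the hypothalamic paraventricular nucleus of dehydrated and control rats. The members were Creb3l1, Creb3l2, Creb3, Creb1, Crem, Atf1, Atf2, Crtc1 and Crebbp, and every probe set whose platform annotation gave a single symbol equal to one of them was used, which gave 9 of 14217 genes and 22 of 31042 probe sets. One group was 5 pools from male Sprague Dawley rats, 10 to 12 weeks old, dehydrated for 3 days, and the other was 5 pools from control males of the same strain and age. Each pool joined the nuclei of 5 animals and was hybridised to 1 Affymetrix Rat Genome 230 2.0 array, a chip that reads each transcript through 1 or more probe sets. Each pool came from its own animals, per the series' design text, and the labels name no transgene or drug. The sample labels name the paraventricular nucleus, whereas the series' design text names the supraoptic nucleus, and the sample labels were followed. How water was withheld and the plasma state of the animals are not given in the sources used here.

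CREB proteins are bZIP transcription factors, which bind DNA as pairs through a basic region and a leucine zipper. Creb1, Crem and Atf1 bind the cAMP response element, or CRE, and are switched on by phosphorylation, after which the coactivators Crebbp and Ep300 are recruited, while Crtc proteins are coactivators that enter the nucleus when dephosphorylated. Creb3, Creb3l1 and Creb3l2 are made as proteins anchored in the endoplasmic reticulum membrane, and are cut in the Golgi by the site-1 and site-2 proteases to free a nuclear fragment. In the hypothalamus the family is known for driving neuropeptide genes, and Creb3l1 is known as a regulator of the vasopressin gene. An array measures transcripts only, so neither phosphorylation nor cleavage is read here.

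The upstream sequences differ in the CRE letters they hold. Shown are Creb3l1, the member that rose, the members with CRE letters, and Vgf, the gene of a secreted precursor and a CRE target that rose too. Each is the 250 bases before a RefSeq start site in the GRCr8 build, 5′ to 3′ on the gene's strand, and capitals mark the full CRE TGACGTCA or its 5-base short form TGACG (the short site), also as its reverse complement CGTCA. The short site is part of the full CRE. Window 1 of Crem held 2 short sites and is not shown. The sequences are credited to RefSeq, and 8 of the 9 members had a window there, 11 windows in all.
Creb3l1 (chr3:98449105-98449354, minus strand): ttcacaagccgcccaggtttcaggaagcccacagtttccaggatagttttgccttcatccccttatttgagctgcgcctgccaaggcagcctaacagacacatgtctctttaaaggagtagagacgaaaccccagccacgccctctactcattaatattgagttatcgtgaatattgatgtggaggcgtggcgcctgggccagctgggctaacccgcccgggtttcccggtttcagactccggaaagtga
Creb3l2 (chr4:66990833-66991082, minus strand): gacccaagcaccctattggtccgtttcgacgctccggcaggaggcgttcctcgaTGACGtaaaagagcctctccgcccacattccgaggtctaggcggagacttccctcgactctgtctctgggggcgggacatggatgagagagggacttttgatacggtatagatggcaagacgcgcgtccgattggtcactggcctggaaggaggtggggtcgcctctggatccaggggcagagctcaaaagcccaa
Creb1, window 1 (chr9:73397259-73397508, plus strand): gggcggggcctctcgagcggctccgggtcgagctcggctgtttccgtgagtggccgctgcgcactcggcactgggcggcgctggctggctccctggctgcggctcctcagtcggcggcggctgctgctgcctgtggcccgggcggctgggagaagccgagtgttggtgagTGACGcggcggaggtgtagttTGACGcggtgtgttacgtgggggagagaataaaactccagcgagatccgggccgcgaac
Crem, window 2 (chr17:58984547-58984796, plus strand): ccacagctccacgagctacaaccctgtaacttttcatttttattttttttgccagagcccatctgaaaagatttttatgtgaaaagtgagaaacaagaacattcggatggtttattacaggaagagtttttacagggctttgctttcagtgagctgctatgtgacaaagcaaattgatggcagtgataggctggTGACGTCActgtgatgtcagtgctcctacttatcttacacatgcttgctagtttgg
Crem, window 3 (chr17:58985240-58985489, plus strand): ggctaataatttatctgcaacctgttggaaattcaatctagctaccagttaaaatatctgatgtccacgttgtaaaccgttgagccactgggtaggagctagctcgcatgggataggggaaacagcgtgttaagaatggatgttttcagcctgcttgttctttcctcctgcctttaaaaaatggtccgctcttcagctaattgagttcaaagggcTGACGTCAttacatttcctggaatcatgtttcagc
Vgf (chr12:25277021-25277270, minus strand): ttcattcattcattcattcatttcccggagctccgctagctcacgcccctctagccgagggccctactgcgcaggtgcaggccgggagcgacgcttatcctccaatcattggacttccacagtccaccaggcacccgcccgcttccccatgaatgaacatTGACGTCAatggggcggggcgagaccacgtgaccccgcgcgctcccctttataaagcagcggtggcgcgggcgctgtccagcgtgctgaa

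The full CRE was found in 2 of the 11 windows, both of Crem, starting 56 and 35 bases before the respective start site. Crem has 3 windows, and it is known to have an internal promoter from which the short repressor form ICER is made. The short site was found in 5 windows, of Creb3l2, Creb1 and Crem. The Creb3l1 window held neither. Over all 33469 windows of the same length, 1.59% held the full CRE and 18.2% the short site. The letters TGACGTGG, a core of the unfolded protein response element, or their reverse complement CCACGTCA, were in none of the 11 member windows (0) and in 0.52% of all windows. These are matches of letters and not measured binding.

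Creb3l1 was the member that rose. Its signals, in linear array units, were 62.4, 62.0, 60.8, 48.4 and 69.4 in the dehydrated pools and 31.9, 41.8, 33.9, 35.5 and 24.3 in the control pools. All 5 dehydrated pools lay above all 5 control pools, with dehydrated replicate 4 the lowest of its group and control replicate 5 the lowest of all. The mean was 60.6 ± 7.61 against 33.5 ± 6.33 (SD, n = 5 each), a log2 difference of 0.80 with a 95% interval from 0.50 to 1.10, or 1.74-fold (limma adjusted p = 0.0159). In such bulk pools more cells of a type and more RNA per cell cannot be told apart, and p-values measure the spread between pools. Log2 differences here are of signal plus a pseudocount of 3.72, which understates the change of a dim probe set such as this one. The difference was 0.65 with a pseudocount 4 times larger and 0.85 with a pseudocount of 1. Without dehydrated replicate 3 the difference stayed at 0.80 and the adjusted p was 0.0535. Without control replicate 5, the array that stood apart from the others with the lowest array weight (0.386), it was 0.70 (limma adjusted p = 0.0185). Leaving out each array in turn gave 0.70 to 0.88.

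**Figure D1:**
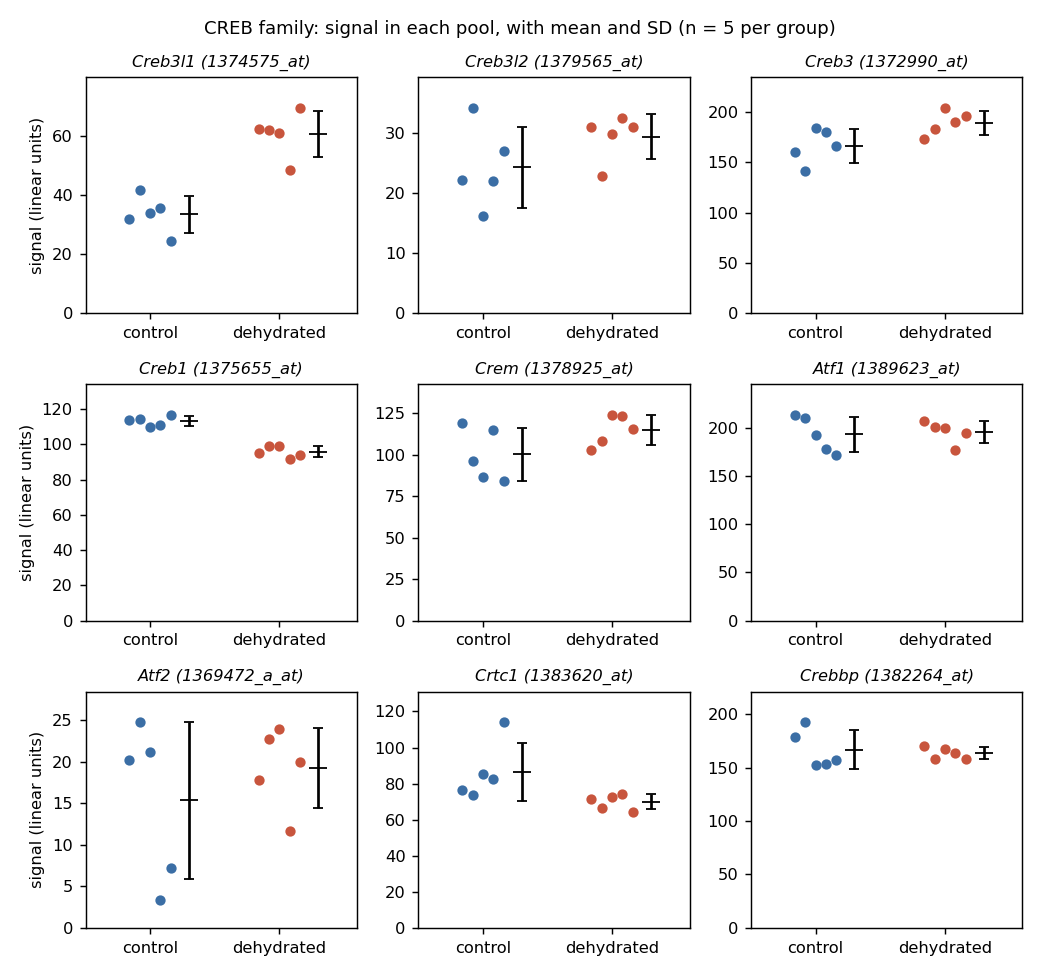
Signal in linear array units (vertical axis, from 0) of the brightest probe set of each of the 9 genes, with a point for each control pool (blue) and each dehydrated pool (red) and bars for the mean and SD, n = 5 per group. Creb3l1 sits at 48.4 to 69.4 in dehydrated pools and 24.3 to 41.8 in control pools, and Creb1 is the other gene whose groups do not overlap, at 92.0 to 99.1 and 109.8 to 116.6.

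Creb3l1 is 1 of 108 probe sets that changed out of 18624 tested, 0.58% of them, and its log2 difference was 27th in size among the 74 that rose. Of the 22 family probe sets 11 reached the signal needed for the test, standing for 8 genes, and the probe set of Atf2 did not. Of those 11, 1 rose, 0 fell and 10 did not pass, where 0.397% of all tested probe sets rose and 0.183% fell. Differences were positive for 6 of the 11, against 48.8% of all. Before adjustment, 4 of the 11 had a limma p below 0.05, those of Creb3l1, Creb3, Creb1 and Crtc1, where 12.7% of all tested probe sets did. Groups did not overlap for 2 of the 11, Creb3l1 upwards and Creb1 downwards, against 3.36% of all tested probe sets, 1.94% upwards and 1.42% downwards. The median log2 difference of the 11 was 0.02, and that of all tested probe sets was -0.005.

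The log2 differences of the close relatives of Creb3l1 were smaller and did not pass. Creb3l2, which like Creb3l1 serves the secretory pathway, had signals of 30.9, 22.8, 29.7, 32.5 and 30.9 in dehydrated and 22.1, 34.1, 16.2, 21.9 and 26.9 in control pools. The groups overlapped, with control replicate 2 above every dehydrated pool. The difference was 0.27 with a 95% interval from -0.11 to 0.65 (limma adjusted p = 0.561), which does not exclude a rise of that size. Creb3, the founding member of the membrane-bound branch, had 173.1, 183.0, 204.0, 190.1 and 195.9 in dehydrated and 160.4, 141.3, 184.3, 180.0 and 166.3 in control pools. Its dehydrated pools all lay above the control mean, but 2 control pools reached into their range. The difference was 0.18, interval 0.01 to 0.36 (limma adjusted p = 0.379).

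Among the phosphorylation-dependent factors, Creb1 and Crem went without a call. The brightest Creb1 probe set had 95.4, 98.9, 99.1, 92.0 and 93.8 in dehydrated and 113.9, 114.5, 109.8, 111.0 and 116.6 in control pools. Every dehydrated pool lay below every control pool, and the SD was 3.13 and 2.74. The difference of -0.23, interval -0.40 to -0.07, did not pass (limma adjusted p = 0.224), and with each array left out it ran from -0.24 to -0.22 (adjusted p from 0.204 to 0.371). The other 3 Creb1 probe sets were under the signal filter, with means of 15.2, 8.52 and 3.09 over the 10 arrays, and had overlapping groups. The brightest Crem probe set had 103.2, 108.1, 123.9, 123.2 and 115.8 in dehydrated and 119.0, 96.1, 86.5, 115.1 and 84.3 in control pools. Of its control pools 2 lay within the dehydrated range and 3 below it, and the difference was 0.20, interval -0.03 to 0.43 (limma adjusted p = 0.454). The other tested Crem probe set had the opposite sign at -0.28, interval -0.66 to 0.11, and Crem makes several transcript forms, which the annotation used here does not assign to probe sets. The 4 other Crem probe sets had means from 17.1 to 23.4 and were not tested. Atf1, the nearest relative of Creb1 and Crem, had a mean of 196 ± 11.6 in dehydrated and 193 ± 18.3 in control pools, a difference of 0.02 with an interval from -0.15 to 0.19. Atf2, a stress-kinase target that pairs with Jun proteins, had 17.8, 22.7, 23.9, 11.7 and 19.9 in dehydrated and 20.2, 24.7, 21.2, 3.4 and 7.2 in control pools. Control replicates 4 and 5 were low, control replicate 2 was the highest of all, and the groups overlapped.

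The coactivators did not pass. The brighter Crtc1 probe set had 71.5, 66.6, 72.4, 74.3 and 64.5 in dehydrated and 76.6, 73.5, 85.2, 82.8 and 113.9 in control pools. Every dehydrated pool lay below the control mean, and the groups met only at dehydrated replicate 4 and control replicate 2. The difference was -0.28, interval -0.52 to -0.03 (limma adjusted p = 0.331), and -0.18 without control replicate 5. The dim second probe set of Crtc1 had the opposite sign, 0.47, with an interval from -0.24 to 1.17. Crebbp, the histone acetyltransferase CBP, had 3 tested probe sets with differences of -0.02, -0.03 and 0.07. Their intervals, -0.20 to 0.15, -0.23 to 0.17 and -0.26 to 0.41, leave room for changes of those sizes.

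The 11 probe sets under the filter had means from 3.09 to 23.4 over the 10 arrays, below the 24.1 needed. Their groups overlapped in all 11, with 9 positive and 2 negative differences between -0.17 and 0.47. In the limma fit without a filter, where 0.206% of 31042 probe sets were called, none of the 11 passed (0, and 0 at an unadjusted p under 0.05), with adjusted p from 0.57 to 0.976.

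**Figure D2:**
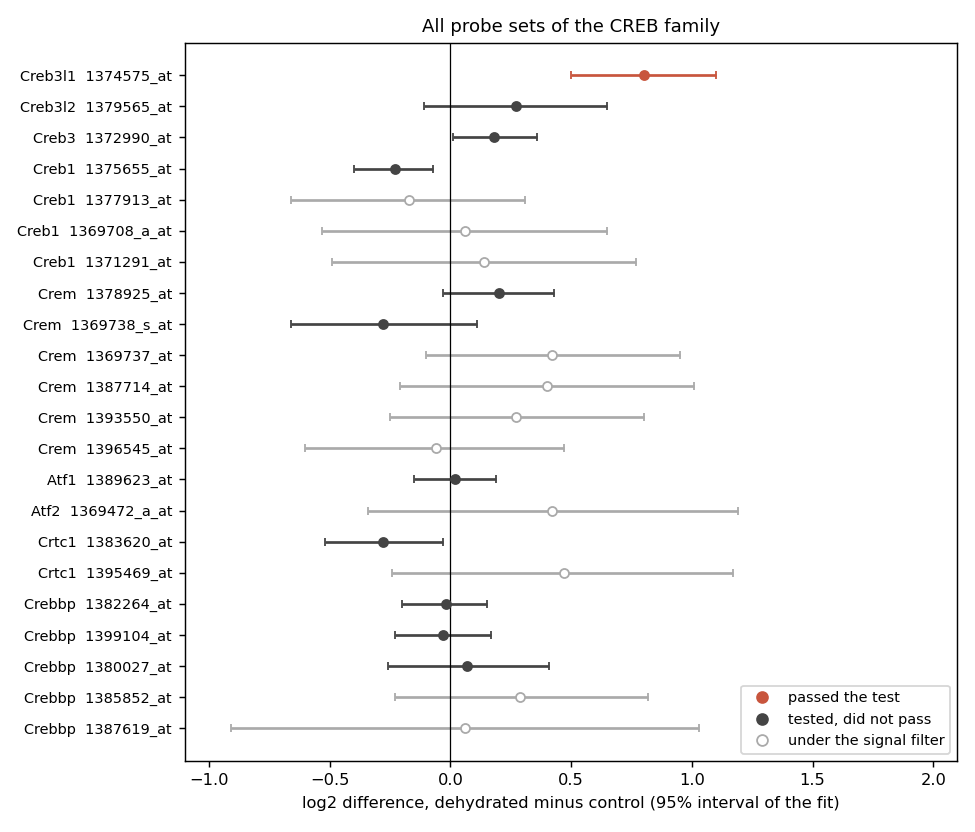
Log2 difference, dehydrated minus control (horizontal axis), with the 95% interval of the limma fit for each of the 22 probe sets, filled where tested and open where under the signal filter (value from the fit without a filter). Creb3l1 at 0.80 passed the test, the interval of the brightest Creb1 probe set ended at -0.07, and those of the open points all crossed 0.

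Whether Creb3l1 changed unlike the other members was tested directly. In each pool the log2 signal of the brightest probe set of another member was subtracted from that of Creb3l1, and the groups were compared by an exact permutation test (two-sided, every assignment of pools), with 8 comparisons made and p adjusted over them. The Creb3l1 ratio rose against Creb1 by 1.03, Crtc1 by 1.08, Crebbp by 0.82 and Atf1 by 0.78, each with pools that did not overlap (exact p = 0.0079, the smallest possible, adjusted 0.016). It rose against Creb3 by 0.61 and Crem by 0.60 (exact permutation p = 0.024, adjusted 0.032 for both) and against Creb3l2 by 0.53 (exact permutation p = 0.04, adjusted 0.045). Against Atf2 the difference was 0.38 (exact permutation p = 0.37), where the control pools had an SD of 0.81. The comparisons with Creb1, Crtc1, Crebbp and Atf1 passed with each array left out, while 5 of the 10 omissions left 4 comparisons past the threshold, dehydrated replicates 1, 2 and 5 and control replicates 1 and 5. The comparison with Creb3l2 did not pass in 7 of the 10 omissions (adjusted exact permutation p up to 0.082). That with Crem did not pass in 6 and that with Creb3 in 5 (adjusted exact permutation p up to 0.053 for both). With a pseudocount of 1 the comparison with Creb3l2 did not pass (adjusted exact permutation p = 0.063). All 8 comparisons share the Creb3l1 values, and the members were chosen with earlier results of these data known. The 8 p-values are therefore not support for the Creb3l1 rise beyond its own test.

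**Figure D3:**
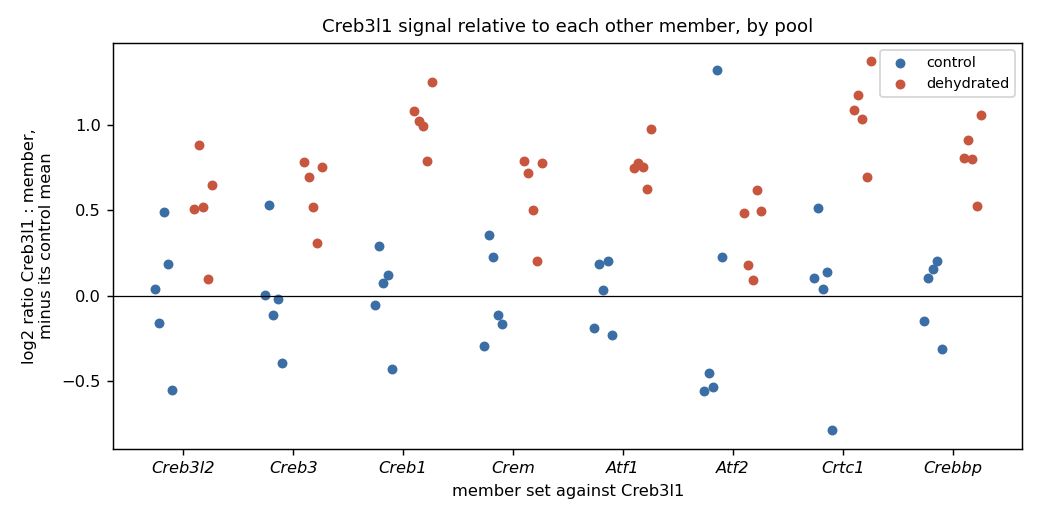
Log2 ratio of Creb3l1 to each other member minus the mean of that ratio in control pools (vertical axis), with a point for each control (blue) and dehydrated (red) pool. The dehydrated pools lie above all control pools for Creb1, Atf1, Crtc1 and Crebbp, and 1 control pool lies above all dehydrated pools for Atf2.

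Genes with a pattern near that of Creb3l1 were picked by the mean absolute difference of log2 signals over the 10 pools, after each probe set's own mean was subtracted, from 18623 tested probe sets. The 5 nearest genes were Arhgdib at 0.14, Vgf at 0.15, Ppargc1a at 0.15, Pdyn at 0.16 and RT1-CE16 at 0.16, where the median probe set was at 0.42. Arhgdib went from 104 ± 9.69 to 200.3 ± 21.3 and the opioid precursor Pdyn from 423 ± 69.3 to 740.3 ± 62.4. Vgf had 1029.7, 941.1, 956.2, 905.1 and 1025.6 in dehydrated and 561.1, 655.3, 616.4, 675.7 and 645.0 in control pools. Ppargc1a, a coactivator of mitochondrial genes and a CREB target in liver, had 43.7, 50.5, 55.4, 48.0 and 60.1 in dehydrated and 23.1, 30.7, 31.7, 35.1 and 17.9 in control pools. The probe set rose (log2 0.84 ± 0.17 SE, limma adjusted p = 0.0304), a call that 5 of 10 omitted arrays ended, with adjusted p up to 0.0961 without dehydrated replicate 3. It was lost too without a filter (0.0849) and without the variance trend (0.0573). Other probe sets of the gene lay at -0.09 and -0.03 (limma adjusted p = 0.692 and 0.93). RT1-CE16 belongs to the class I histocompatibility genes, whose close copies its probe set may share, and it did not pass. Control replicate 5 was the lowest pool for Creb3l1, Arhgdib, Ppargc1a, Pdyn and RT1-CE16, which the choice by likeness to Creb3l1 favours. The nearest family members were Crem at 0.33, Creb3l2 at 0.34 and Creb3 at 0.35, and the farthest were Creb1 at 0.52 and Crtc1 at 0.54.

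**Figure D4:**
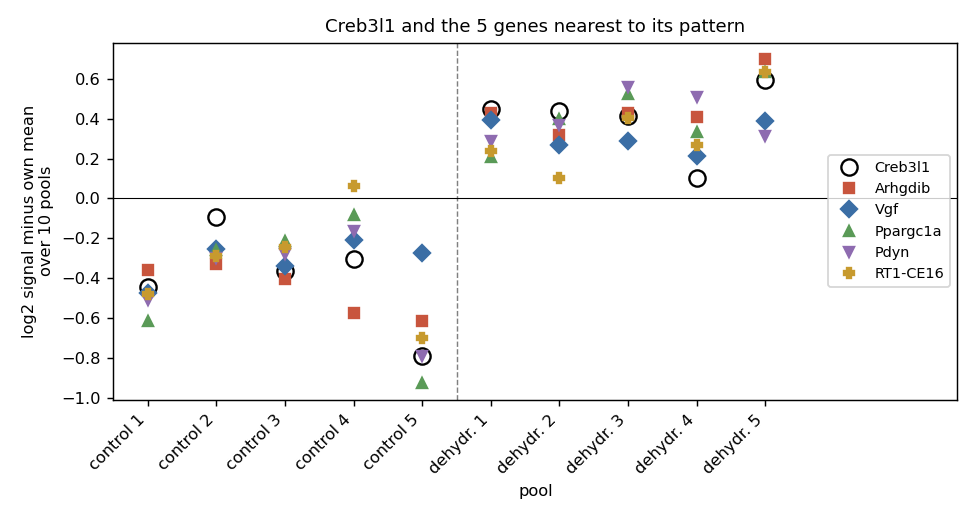
Log2 signal minus its own mean over the 10 pools (vertical axis) in each control and dehydrated pool (horizontal axis) for Creb3l1 (open circles) and the 5 genes with the smallest mean absolute difference to it, 0.14 to 0.16. All lie higher in dehydrated pools, as the choice by likeness to Creb3l1 fixes. Control replicate 5 is low for Creb3l1 and for the others apart from Vgf, a likeness that the choice also favours.

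The wider pathway was read through 10 gene lists, in which the brightest probe set stood for a gene. They held 199 tested genes, of which 4 rose (Creb3l1, Atf4, Vgf and Pdyn) and 1 fell (Ep300), 2.51% against 0.58% of all tested probe sets. With array weights the count was 10, with the stricter filter 8 and without the variance trend 3. It was 3 without dehydrated replicate 3 or 4 and without control replicate 1 or 2. Before adjustment 43 of the 199 had p below 0.05, or 21.6%, against 12.7%. The lists were chosen with earlier results of these data known. They count the brightest probe set of a gene, while the shares over all count every tested probe set. These shares therefore cannot show an enrichment, and none was tested. Without the members themselves, 193 genes were left, of which 3 rose and 1 fell.

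Of the CREB/ATF factors outside the family, Atf4, which drives amino acid and stress genes, rose. It had 787.3, 787.7, 791.5, 835.7 and 774.8 in dehydrated and 596.9, 588.8, 630.9, 601.2 and 715.4 in control pools, and no pools overlapped. The difference was 0.35 ± 0.06 SE (limma adjusted p = 0.0146), where 0.397% of all tested probe sets rose. Leaving out dehydrated replicate 4 ended the call (limma adjusted p = 0.0538), as did leaving out control replicate 1 (0.0508) or 2 (0.0518) or the variance trend (0.095). The other 9 tested genes of that list did not pass, with a list median of 0.05, and Cebpb had 0.45 (limma adjusted p = 0.288) and Xbp1, the splicing-controlled factor of the unfolded protein response, 0.10. The membrane-bound factors Atf6 and Atf6b, cleaved like Creb3l1, had -0.18 and -0.32 without passing.

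Of 12 coactivators and regulators of CREB, Ep300 fell and 11 did not pass, with a median of -0.05, and 3 (25%) had an unadjusted limma p under 0.05. Over all tested probe sets 0.183% fell and 12.7% had such a p. Ep300, the acetyltransferase p300 and closest relative of Crebbp, had 259.2, 315.7, 247.3, 242.0 and 279.2 in dehydrated and 311.8, 350.3, 351.2, 353.0 and 358.3 in control pools. Dehydrated replicate 2 reached above control replicate 1, and the other dehydrated pools lay below all controls. The difference was -0.36 ± 0.08 SE (limma adjusted p = 0.0474). The call ended with 9 of the 10 arrays left out in turn, all but dehydrated replicate 2 (adjusted p from 0.0552 to 0.132), and with median centring (0.0607), quantile normalization (0.0524), no filter (0.0849) or no variance trend (0.133). A second Ep300 probe set, with signals under the filter, lay at 0.25. Kat2b, another acetyltransferase, had -0.20 and Sik2, a kinase that holds Crtc proteins in the cytoplasm, -0.12, without passing.

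The enzymes that would act on these factors gave no call. Of 9 tested genes of site-1 and site-2 proteolysis, 0 passed in limma and 1 (11.1%) had an unadjusted p under 0.05. Over all tested probe sets 12.7% had such a p. Mbtps1, the site-1 protease, had 161 ± 25.7 in dehydrated and 169 ± 28.6 in control pools (log2 -0.07, and 0.024 without control replicate 5). The sterol factor Srebf2, another substrate, had -0.35 (limma adjusted p = 0.13). Of 26 genes of cAMP and PKA signalling, 0 passed, with 5 (19.2%) at an unadjusted p under 0.05. The phosphodiesterase Pde4a, which breaks down cAMP, had 18.5, 31.1, 22.2, 39.2 and 29.8 in dehydrated and 38.5, 53.0, 57, 40.9 and 54.2 in control pools (log2 -0.74 ± 0.18 SE, limma adjusted p = 0.0797). The adenylyl cyclase Adcy8 had -0.41 ± 0.11 SE (limma adjusted p = 0.103), with every dehydrated pool below every control pool. Of 27 CREB kinases and phosphatases 0 passed in limma and 4 (14.8%) had an unadjusted p under 0.05, led by Prkcb at -0.21 and Ppp1ca at 0.13.

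Among 27 tested CRE-regulated target genes, Vgf and Pdyn rose, 0 fell and 25 did not pass. The median was 0.12, 20 were positive and 7 (25.9%) had an unadjusted p under 0.05. Over all tested probe sets 0.397% rose, 0.183% fell, 48.8% were positive and 12.7% had such a p. Vgf rose by 0.62 ± 0.06 SE (limma adjusted p = 6.2e-05) and Pdyn by 0.81 ± 0.10 SE (limma adjusted p = 5.72e-04), and both calls held with each array left out. Pdyn's other probe set, under the filter, was at -0.03. Vasopressin (Avp) had 4956 ± 642 in dehydrated and 3531 ± 633 in control pools, a log2 difference of 0.50 ± 0.11 SE (limma adjusted p = 0.0504). Avp passed in 5 of 19 alternatives, with the larger pseudocount (0.0467), the stricter filter (0.0473), array weights (0.0128), and without dehydrated replicate 2 (0.0172) or control replicate 5 (0.0132). Somatostatin (Sst) had 0.50 ± 0.14 SE (limma adjusted p = 0.133). The Avp window held 1 short site and no full CRE, the Pdyn and Sst windows neither. Each of these 3 genes had 1 window, and CRE letters further upstream or before any other start site were not looked for. An empty window therefore does not show that a gene lacks a CRE. Of 21 target genes with a window, 8 held the full CRE and 17 the short site. Over all genes with a window these shares were 1.78% and 20%. The 21 were tested genes, and of all tested genes with a window 3.04% held the full CRE. The list was made of CRE-regulated genes, so its choice favours such letters.

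Transport and folding genes, which Creb3l1 and Creb3l2 are known to drive in secretory cells, gave no call in the main test. Of 43 ER to Golgi transport genes 0 passed in limma, 10 (23.3%) had an unadjusted p under 0.05, 32 were positive and the median was 0.08. Over all tested probe sets 12.7% had such a p and 48.8% were positive. The cargo receptor Tmed3 had 239.9, 267.9, 268.2, 268.2 and 229.8 in dehydrated and 179.9, 172.7, 200.4, 228.5 and 194.9 in control pools, with no overlap (log2 0.38 ± 0.08 SE, limma adjusted p = 0.0506). It passed with quantile normalization (0.0403), a larger pseudocount (0.0486), the stricter filter (0.044), array weights (0.0374) and without control replicate 4 (0.0291). The coat subunit Cope had 0.29 (limma adjusted p = 0.0547) and Tmed10 0.27 (0.0623), also without overlap, and both passed with the stricter filter and with array weights, and Cope also without dehydrated replicate 2 (0.0394). The summed signal of the 44 transport genes on the array was 15446 to 15937 in dehydrated and 14551 to 14793 in control pools. Linear sums, here and for the markers below, are weighted to the brightest genes, such as Arf1 with a mean of 1279.7. No sum over all genes was set beside them, and the difference between the sums was not tested. Of 27 folding genes 0 passed in limma and 4 (14.8%) had an unadjusted p under 0.05. Their median was 0.06, with Fkbp11 at 0.47 (limma adjusted p = 0.0965) and Pdia6 at 0.18. Of 19 collagen and bone matrix genes, targets of Creb3l1 in bone, 0 passed in limma and 6 (31.6%) had an unadjusted p under 0.05. Col5a1 had 0.49 (limma adjusted p = 0.0928) and Lum -0.45.

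**Figure D5:**
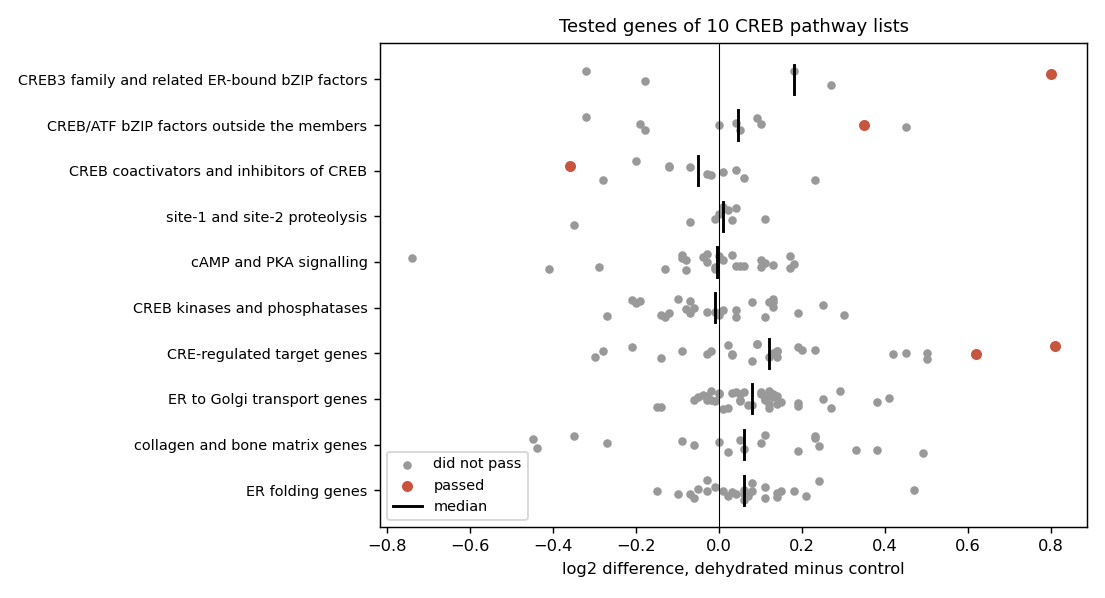
Log2 difference, dehydrated minus control (horizontal axis), of every tested gene in the 10 pathway lists, with red points for genes that passed the test and black bars for list medians. The red points are Creb3l1, Atf4, Ep300, Vgf and Pdyn, and the list medians run from -0.05 to 0.18.

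Markers of the labelled tissue were present, though no supraoptic samples were compared here. Oxytocin (Oxt) had 4861 ± 605 in dehydrated and 4089.8 ± 389 in control pools, Trh 651 ± 44.7 and 615 ± 56.5, Crh 319.5 ± 89.7 and 282 ± 94.3, and the lineage factor Sim1 79.2 ± 16.5 and 62.1 ± 15.4. Of 9 paraventricular neuron markers 2 were under the filter and the 7 others had positive differences, with a summed signal of 9472 to 12511 in dehydrated and 7852 to 10329 in control pools, and 0 passed in limma with 2 at an unadjusted p under 0.05. Of 11 oligodendrocyte markers 1 fell (Ermn, log2 -0.63, while its other tested probe set had -0.30 without passing), 10 were negative and 8 had an unadjusted p under 0.05, or 72.7% against 12.7% of all tested probe sets, and their summed signal was 7344 to 7683 in dehydrated and 7917 to 9587 in control pools. For astrocytes 7 of 9 markers were negative (sums of 13118 to 15124 and 13541 to 15591), for microglia 6 of 8 (947 to 1081 and 1048 to 1162) and for the lateral and posterior hypothalamus 5 of 6 (3402 to 6085 and 4177 to 7107). Of 9 endothelial markers 8 were positive (1203 to 1398 and 1005 to 1314), and 1 of 2 red cell markers, Hbb, fell. Over all tested probe sets 48.8% had a positive difference and 0.183% fell. No listed marker on the array was at 0 in all pools. The Ermn call ended in 5 of 19 alternatives, without dehydrated replicate 3 (limma adjusted p = 0.0549) or 4 (0.065), control replicate 2 (0.0791), the filter (0.064) or the variance trend (0.0941). The Hbb call ended in 8 of 19, with 6 of the 10 omitted arrays (dehydrated replicates 1, 3 and 4 and control replicates 1, 2 and 4, limma adjusted p from 0.0536 to 0.0842), without the filter (0.0849) and without the variance trend (0.126). Hcrt, the orexin precursor of the lateral hypothalamus, had 282.3, 803.1, 235.1, 958.3 and 1027 in dehydrated and 689.2, 2508, 2098.6, 2026.6 and 609.3 in control pools. Its groups overlapped, and the difference of -1.28 did not pass (limma adjusted p = 0.233). The part of these shifts in the Creb3l1 and pathway differences was not tested. Array medians ran from 36.4 to 39.1 and pairwise correlations from 0.959 to 0.978. The labels used here name no array batch, so its part was not tested. The sample titles are numbered in separate runs for the groups, with control replicate 5 out of sequence with the other controls. What the numbering stands for is not given.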

How the data were processed

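RNA of 10 pools, 50 animals in all, was read on 1 array each. The deposited values were linear probe set intensity values (signals), made by the authors with GCOS 1.2, per the submitters' processing notes, and their trimmed mean (2% at each end) was 100 on every array. The signal algorithm and detection calls are not given in the sources used here. Background in dim signals shrinks their differences. Of 31099 probe sets 57 controls were left out. Of the 31042 others, 20826 had 1 symbol, 436 several and 9780 none, and 20758 symbols were updated by Entrez identifier through the RefSeq table of GRCr8.

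Groups came from the source labels. Signals were used as log2(signal + 3.72), the pseudocount being 0.1 of the median array median. Probe sets whose mean signal reached the 40th percentile (24.1) were fitted with lmFit and eBayes (trend) of limma 3.58.1 (R 4.3.3). Its two-sided p-values were adjusted by Benjamini and Hochberg over the 18624 tested probe sets, and 0.05 was the threshold. The fit was checked on simulated data. Named were all member probe sets, up to 4 genes per list by p, the 5 genes most like Creb3l1, and tissue markers. Genes outside that rule (the other probe sets, Ppargc1a's among them, and the genes with a CRE) were named after their values were seen. The members and lists were chosen with earlier results of these data known. Alternatives were other scalings, pseudocounts, filters, variance models, array weights, gene means and each array left out. The number of arrays limits the precision.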

Additional observations from a re-analysis of the deposited data

Results flagged for a closer look

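Among 44 groups of 5 pools (22 probe sets in each group of animals), 2 held a pool far from its fellows, where chance alone gives about 1 in 20 groups. Creb3l2 had 22.8 in dehydrated replicate 2, against 29.7 to 32.5 in the other dehydrated pools. The brighter Crtc1 probe set had 113.9 in control replicate 5, against 73.5 to 85.2 in the other controls. Without that control array the Crtc1 difference was -0.18 in place of -0.28.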

How the results depend on the processing

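The count of changed probe sets was 108 in the main test, 64 without a filter, 45 without the variance trend, 201 with array weights and 46 to 148 with each array left out. The count of changed members was 1, but 0 with the stricter filter, which left Creb3l1 untested at a mean of 47.0 against 58.7, and 0 to 1 with each array left out, 0 being without dehydrated replicate 3. Creb3l1 kept its direction in 18 alternatives and its call in 17, with 0.70 to 0.88 over omitted arrays. Kept calls near the threshold had limma adjusted p of 0.0485 without a filter, 0.0481 without dehydrated replicate 5 and 0.0457 without control replicate 1. Creb3l1 was read through 1 dim probe set, so no other could be set beside it. The count of changed pathway genes was 5, and 8 with the stricter filter, 3 without the variance trend, 10 with array weights and 3 to 7 with each array left out. Of the 8 comparisons of Creb3l1 with another member, 7 passed, and 4 to 8 with each array left out. Reversed signs were seen only for uncalled values. Atf1 was at -0.009 with array weights, and with each array left out it ran from -0.019 to 0.06. The brightest Crebbp probe set ran from -0.05 to 0.028, the next from -0.09 to 0.015 and the dimmest tested one from -0.05 to 0.17 with each array left out. Likewise Mbtps1 ran from -0.15 to 0.024, and the marker Lhx9 from -0.27 to 0.104. The cause was not tested. No paired analysis was possible because replicates were numbered in accession order. Of the 22 family probe sets 11 were too dim to test.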

Other observations

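Genes with a full CRE just upstream were counted among all calls, after the member windows had been read. Of 56 genes that rose and had a RefSeq window, 7 held TGACGTCA in the 250 bases before a start site, or 12.5%, and of 18 that fell, 0 did. Over all 8752 tested genes with a window the share was 3.04%. The difference between these shares was not tested. The 7 genes were the zinc finger gene Giot1 (log2 1.68), Ppargc1a (0.84), the drug efflux pump gene Abcg2 (0.82), Vgf (0.62), the neuronal GTPase gene Rit2 (0.30), Rnf7 (0.29) and lactate dehydrogenase A (Ldha, 0.27). A gene counted here if any of its probe sets rose, so Ppargc1a counts through its dimmest tested probe set, a call lost in 7 of 18 alternatives, although by its brightest it is among the CRE targets that did not pass. Over 19 other settings, added after seeing the data, the count ran from 3 to 10 and the share from 7.69% to 14.3%, against a share over tested genes of 2.71% without a filter, 3.26% with the stricter filter and 3.04% in the others.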
